A study of Homo sapiens with 24 samples.

Results

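MRC2, also called Endo180 or uPARAP, was followed in ribosome footprints and RNA of 4 cell groups derived from the human breast cancer line MDA-MB-231. It is represented by 1 transcript, ENST00000303375, of the 11396 transcripts listed in the deposited tables, and it has a row in both tables. The row was picked by this identifier, and MRC2 was chosen because of its values in LM2 and parental cells. Those values are therefore given as a description with no test, and tests are confined to the other experiment. RefSeq's annotation of GRCh38.p14 places the gene (Ensembl ENSG00000011028.14) at chr17:62627670-62693597, and the submitters' processing notes name the same build as hg38.

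MRC2 encodes a transmembrane endocytic receptor of the mannose receptor family. It binds collagen through a fibronectin type II domain, takes collagen and collagen fragments into the cell through clathrin-coated pits and delivers them to lysosomes for breakdown, and then returns to the surface. It also associates with the urokinase receptor and pro-urokinase, from which the name uPARAP derives. It is known as a receptor of fibroblasts and other mesenchymal cells, and of invasive tumour cells with mesenchymal traits.

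Ribosome profiling reads the pieces of mRNA that a ribosome shields during nuclease digestion, so that a footprint signal reports how many ribosomes sit on a transcript. RNA-seq of the same kind of lysate reports the RNA level, and the footprint signal per RNA signal is called translation efficiency here. The first experiment has parental MDA-MB-231 cells, labelled poorly metastatic, and MDA-LM2 cells, a derivative labelled highly metastatic to lungs. The other experiment has cells with a control guide (MDA-sgCTRL, genotype labelled control) and cells with a guide against HNRNPC (MDA-sgHNRNPC, labelled HNRNPC knockdown), both also labelled poorly metastatic. HNRNPC is a nuclear protein that binds nascent pre-mRNA. Each group has 3 replicates in each assay, 24 libraries in all, from untreated cells grown in the same medium. The labels do not say how the knockdown was made, whether the guide lines are clones, or whether replicates were separate cultures, so p-values measure only the variation among these libraries, and part or all of it may be technical. The stated aim of the series was to compare translation efficiency between highly and poorly metastatic cells.

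The tables name transcripts by identifier alone, and 0 of the 11396 identifiers matched the gene name tables used here. The level of HNRNPC, the marker genes of the line, and the other genes of collagen turnover were for that reason not analysed here. Within a library every RNA value was a whole multiple of 1 step, and 1 step was taken as 1 read. No value near 1 step was listed to check this, since the lowest in a library was 4 to 11 steps. On that reading the RNA values corresponded to 26810212 to 52584688 reads in the 6 libraries of the LM2 table and 23344230 to 28334050 in those of the other. The footprint signal of a library summed to between 1023095 and 1134509 in the LM2 table and between 669584 and 753066 in the knockdown table. How many footprint reads lie behind these sums is unknown. The tables were normalized separately, so levels were compared within a table unless stated otherwise.

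MRC2 RNA was compared first. The normalized RNA signal was 158, 260.0 and 284 in parental replicates 1, 2 and 3. It was 304, 258 and 286 in the LM2 replicates. The groups overlapped, and parental replicate 1 stood below the other 5 libraries of the table. Taking 1 step of the RNA values as 1 read, its value rested on 124 reads, with an exact Poisson 95% interval of 103 to 148 reads, which corresponds to a signal of 132 to 189. The other libraries of that table held 241 to 462 MRC2 reads. These intervals cover counting error only. In control guide cells the RNA signal was 249.9, 275 and 297, and in HNRNPC knockdown cells it was 248, 244 and 223. The 3 knockdown libraries lay just below the 3 control guide libraries.

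Footprints on MRC2 varied far more between groups than its RNA did. The normalized footprint signal was 14.6, 13.6 and 17.4 in parental cells and 4.55, 6.44 and 8.17 in LM2 cells. Each LM2 library was below each parental library. The signal was 1.35, 3.50 and 5.56 in control guide cells and 5.94, 7.26 and 12.5 in knockdown cells. Each knockdown library was above each control guide library, although the highest control and the lowest knockdown value were close. The footprint signal of control guide replicate 1 was the lowest of the 12 footprint libraries, and that library also held the most transcripts listed at 0, 234 against 23 to 139 in the other libraries of its table. What part this library's zeros had in the result was not tested.

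**Figure D1:**
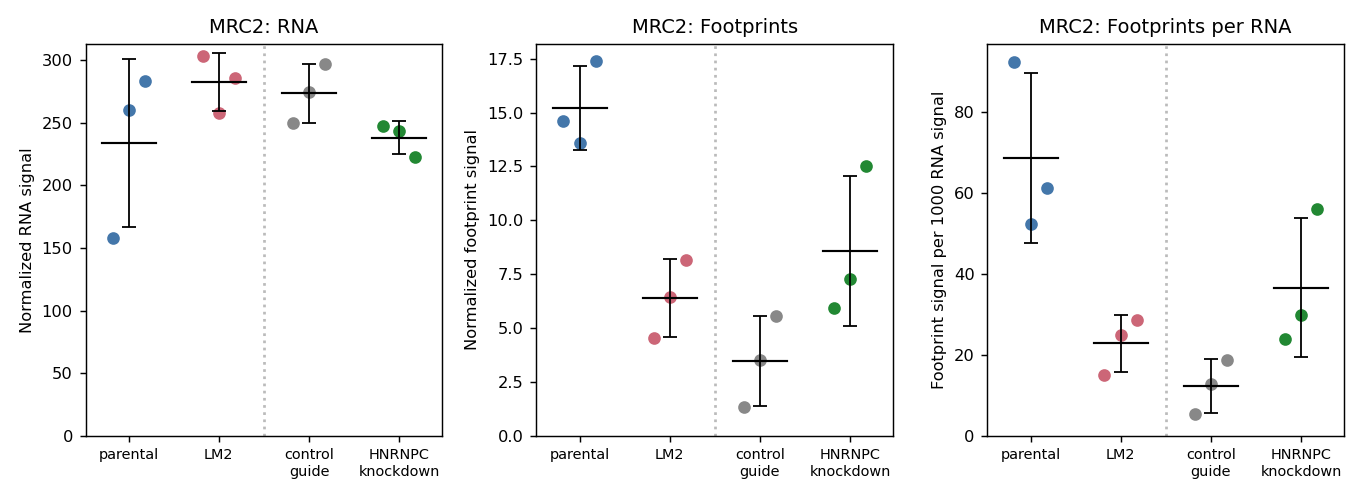
MRC2 in each library: normalized RNA signal (left), normalized footprint signal (middle) and footprint signal per 1000 units of RNA signal (right), with 1 point per replicate, a horizontal line at the mean and bars of 1 SD (n = 3). The dotted line divides the separately normalized tables. RNA means lie between 234 and 282, whereas footprint means run from 3.47 in control guide cells to 15.2 in parental cells.

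Translation efficiency of MRC2 followed the footprints. With each replicate's footprints divided by the RNA of the same number, the footprint signal per 1000 units of RNA signal was 92.5, 52.3 and 61.3 in parental cells. It was 14.96, 25.0 and 28.6 in LM2 cells. Every LM2 value was below every parental value, and the high first parental value comes from the library with the low RNA. In control guide cells the efficiency was 5.42, 12.8 and 18.7, and in knockdown cells it was 23.97, 29.8 and 56.1. These groups did not overlap either, and the knockdown values covered a wider range. The means were 68.7 ± 21.1 in parental, 22.8 ± 7.06 in LM2, 12.3 ± 6.67 in control guide and 36.6 ± 17.1 in knockdown cells (SD, n = 3).

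MRC2 was ranked among other transcripts by its RNA, footprint and efficiency values. The ranking used the rows whose mean was at least 10 in each assay, taken over the 6 libraries of that assay in a table. MRC2 passed this in the LM2 table, with a mean footprint signal of 10.8, and 141 rows lay between the minimum and MRC2. The rows nearest to the minimum had means of 9.99 and 10.003. It passed through its parental libraries, since the LM2 mean alone was 6.39 ± 1.81. MRC2 did not pass in the knockdown table, where its mean footprint signal was 6.02, and there it was ranked as 1 added row among the 8283 that did. Signals are per transcript and not per length, so a rank of RNA or footprints reflects transcript length as well as abundance. The minimum also removes low rows, so low footprint ranks were largely fixed by it, above all in the knockdown table, and they are read with the percentiles among all rows.

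In parental cells MRC2 ranked 483rd from the lowest RNA signal and 863rd from the lowest footprint signal of 9342 rows. Its efficiency ranked 7093rd, at the 75.9th percentile. In LM2 cells it ranked 696th for RNA, 32nd for footprints and 2145th for efficiency, at the 23.0th percentile. In control guide cells it ranked 461st of 8284 for RNA, 7th for footprints and 1161st for efficiency, at the 14th percentile. In knockdown cells it ranked 370th for RNA, 97th for footprints and 4279th for efficiency, at the 51.6th percentile. The RNA percentile thus stayed between 4.45 and 7.44 in the 4 groups, while the efficiency percentile of the group means ran from 14 to 75.9.

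Among all rows of the tables, with no minimum, the footprint percentile was 24.6 in parental, 10.6 in LM2, 8.47 in control guide and 19.9 in knockdown cells. The RNA percentile was then 15.1, 18.1, 17.5 and 14.9 in the same order. MRC2 was thus in the lower part of the tables for both. Its efficiency percentile among all rows was 76.3, 24.7, 18.5 and 55.7, in the same order of groups as with the minimum. With the minimum, the low footprint percentiles moved when single libraries were left out. That they stayed low was largely fixed by the minimum and is not read as stability. The knockdown value of 1.16 was 2.84, 1.98 and 0.362 without replicate 1, 2 and 3. The control guide value of 0.0724 was 0.193, 0.133 and 0.0604 without replicate 1, 2 and 3. The LM2 value of 0.332 was 0.503, 0.310 and 0.246 in the same order. The control guide efficiency percentile of 14 was 19.0, 14.1 and 9.21 without replicate 1, 2 and 3.

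Single libraries gave the same picture with a wide spread. The efficiency percentile was 89.7, 64.7 and 72.6 in the parental replicates and 12.2, 27.4 and 32.3 in the LM2 replicates. It was 5.43, 14.7 and 24.8 in control guide cells and 33.1, 42.9 and 74.9 in knockdown cells. Knockdown replicate 3 reached the parental range, and the other knockdown replicates lay below it. The median row had a footprint signal of 42.5 and 43.6 per 1000 units of RNA signal in parental and LM2 cells and 35.7 and 37.8 in control guide and knockdown cells. MRC2 was thus above the median row in parental cells, near it in knockdown cells and below it in LM2 and control guide cells.

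**Figure D2:**
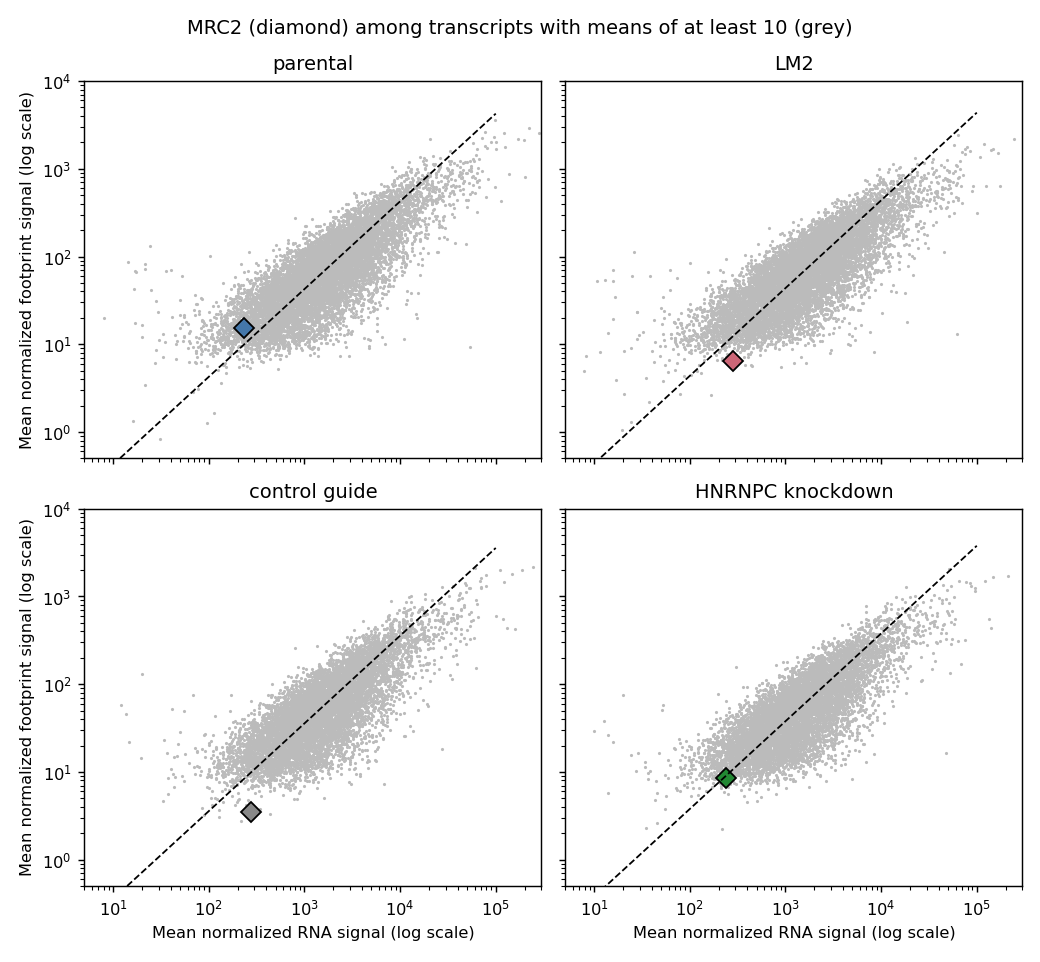
Mean normalized footprint signal against mean normalized RNA signal in each cell group, both on log scales, for the transcripts with means of at least 10 in both assays of a table (grey points) and MRC2 (diamond). The dashed line marks the median footprint per RNA ratio of the grey points. MRC2 sits above the line in parental cells, on it in knockdown cells and below it in LM2 and control guide cells, at RNA means of 234 to 282.

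To order the 4 groups across tables, each value was scaled to a library sum of 1000000 over the 10623 transcripts listed in both. On this scale the scaled footprint signal of MRC2 was 13.6 ± 1.58 in parental, 12.2 ± 4.48 in knockdown, 6.18 ± 1.87 in LM2 and 4.75 ± 2.96 in control guide cells (SD, n = 3). Parental and knockdown libraries overlapped, at 12.3 to 15.4 and 8.88 to 17.3. LM2 and control guide libraries overlapped as well, at 4.27 to 8.01 and 1.80 to 7.72. Between these pairs, the lowest knockdown library was above the highest LM2 library. The scaled RNA signal was 10.4 ± 0.948 in control guide, 10.1 ± 0.540 in knockdown, 8.72 ± 0.764 in LM2 and 6.92 ± 2.003 in parental cells. Neighbours in that order overlapped, except that each knockdown RNA library was above each LM2 library. Control guide and parental RNA, the ends of that order, did not overlap. Cell group and experiment cannot be told apart in any comparison across the tables.

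In LM2 cells against parental cells the fitted footprint change of MRC2 was -1.16 ± 0.35 and the RNA change 0.31 ± 0.18 (log2 change ± SE, limma, values as log2(value + 1)). The footprint mean was 2.38 times higher in parental cells. The fitted efficiency change was -1.47 ± 0.36, the second lowest of the 9342 rows fitted, where the median row changed by 0.04. Its SE was larger than the median SE of 0.17. MRC2 was chosen on this contrast, so no p-value is given and nothing is read from its efficiency rank. It also entered the rows fitted only through its parental libraries, as given above. Footprint groups did not overlap, with LM2 lower, for 20.4% of the rows fitted, and efficiency groups for 7.23%. Nothing is read from MRC2 being among them. Without parental replicate 1 the RNA change was 0.05 and the efficiency change -1.23. The RNA difference between the groups thus came mainly from that library, and most of the efficiency difference was there without it.

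The other experiment compared knockdown of HNRNPC with a control guide, and its libraries are not those whose values led to the choice of MRC2, although earlier results from them were known when it was chosen. The MRC2 footprint mean was 8.57 ± 3.47 in knockdown cells against 3.47 ± 2.10 in control guide cells (SD, n = 3), 2.47 times higher. RNA was 238 ± 13.4 against 274 ± 23.6. Since MRC2 was below the minimum mean, the model was fitted on all 10767 rows of the table and p-values were adjusted over them. None of the 3 changes passed the threshold of 0.05 on the adjusted p.

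The footprint change was 1.16 ± 0.48 (95% interval 0.17 to 2.15, limma unadjusted p = 0.0235, Benjamini-Hochberg adjusted p = 0.0714). Of all rows, 29.4% passed for footprints in either direction and 13.4% passed for a rise. The RNA change was -0.20 ± 0.14 (95% interval -0.49 to 0.09, limma adjusted p = 0.209), where 70.1% of rows passed in either direction. The efficiency change was 1.36 ± 0.49 (95% interval 0.32 to 2.40, limma unadjusted p = 0.0136, adjusted p = 0.141). Efficiency passed for 3.78% of rows in either direction and 2.58% for a rise, and 18.7% had an unadjusted p under 0.05. The efficiency change of MRC2 was 110th from the highest of the 10767 rows, in a fit whose median row changed by 0.10.

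The 3 knockdown libraries were higher than the 3 control guide libraries for footprints and for efficiency, and lower for RNA. Groups did not overlap in the same direction for 20.1% of rows for footprints, 16.2% for efficiency and 42.2% for RNA, so this separation was common in the table. An exact two-sided permutation test over the 6 libraries gave p = 0.1 for each of the 3 measures, the smallest that 3 against 3 allows. The low footprint values spread widely between replicates. The SD of MRC2 footprints on the log2 scale was 0.75 in control guide and 0.50 in knockdown cells. The median was 0.41 and 0.38 for rows with a mean footprint signal of 5 to 15 in the group. The control guide mean of MRC2, 3.47, lies below that range, so its SD is set beside rows of higher signal. Without control guide replicate 1, the library with the most zeros, the footprint change was 0.76 (limma adjusted p = 0.253) and the efficiency change 1.02 (adjusted p = 0.262). Without knockdown replicate 3 they were 0.88 (adjusted p = 0.260) and 1.03 (adjusted p = 0.366). Without control guide replicate 3 the footprint change was 1.496 and passed the threshold (adjusted p = 0.0427).

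**Figure D3:**
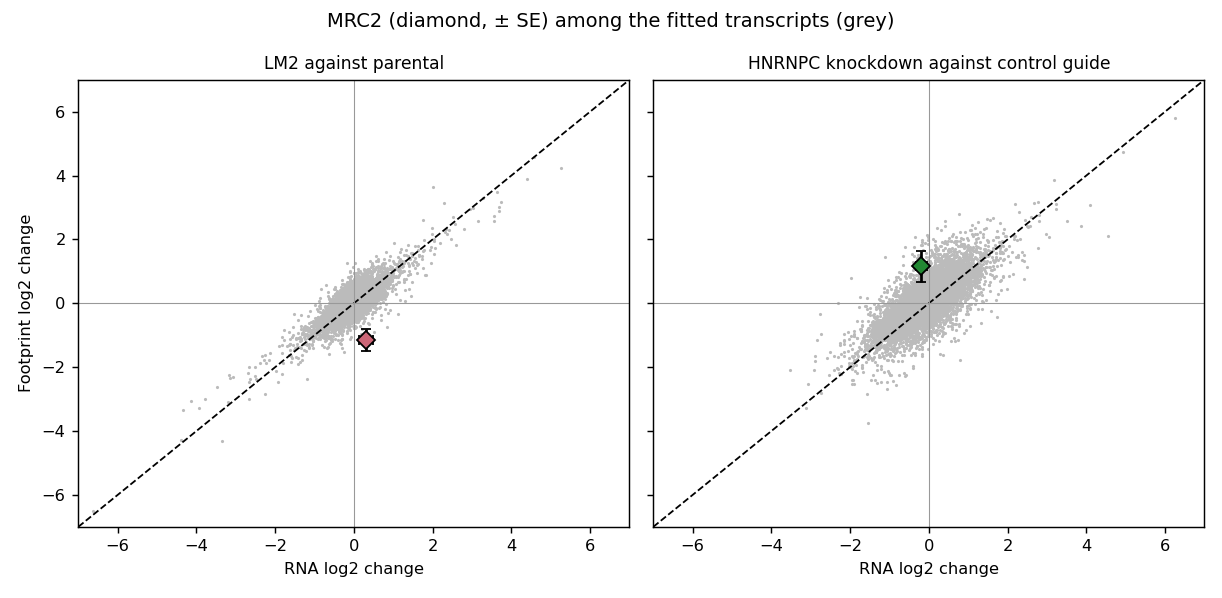
Fitted log2 change of footprints against fitted log2 change of RNA for the transcripts fitted in each experiment (grey points) and MRC2 (diamond, bars of 1 SE). The dashed line marks equal change of footprints and RNA. MRC2 lies below the line in LM2 cells (RNA 0.31, footprints -1.16) and above it in knockdown cells (RNA -0.20, footprints 1.16, not past the threshold).

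Set side by side, the fitted efficiency change of MRC2 was -1.47 ± 0.36 for LM2 cells and 1.36 ± 0.49 for the knockdown, each within its own table. The difference between the experiments was not tested, since MRC2 was chosen on the first of them. RNA changes were small beside the footprint changes in both. Their estimates had the opposite sign, but the sign of the RNA changes is uncertain. The 95% interval for the knockdown was -0.49 to 0.09, and the LM2 change was 0.05 without parental replicate 1.

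**Figure D4:**
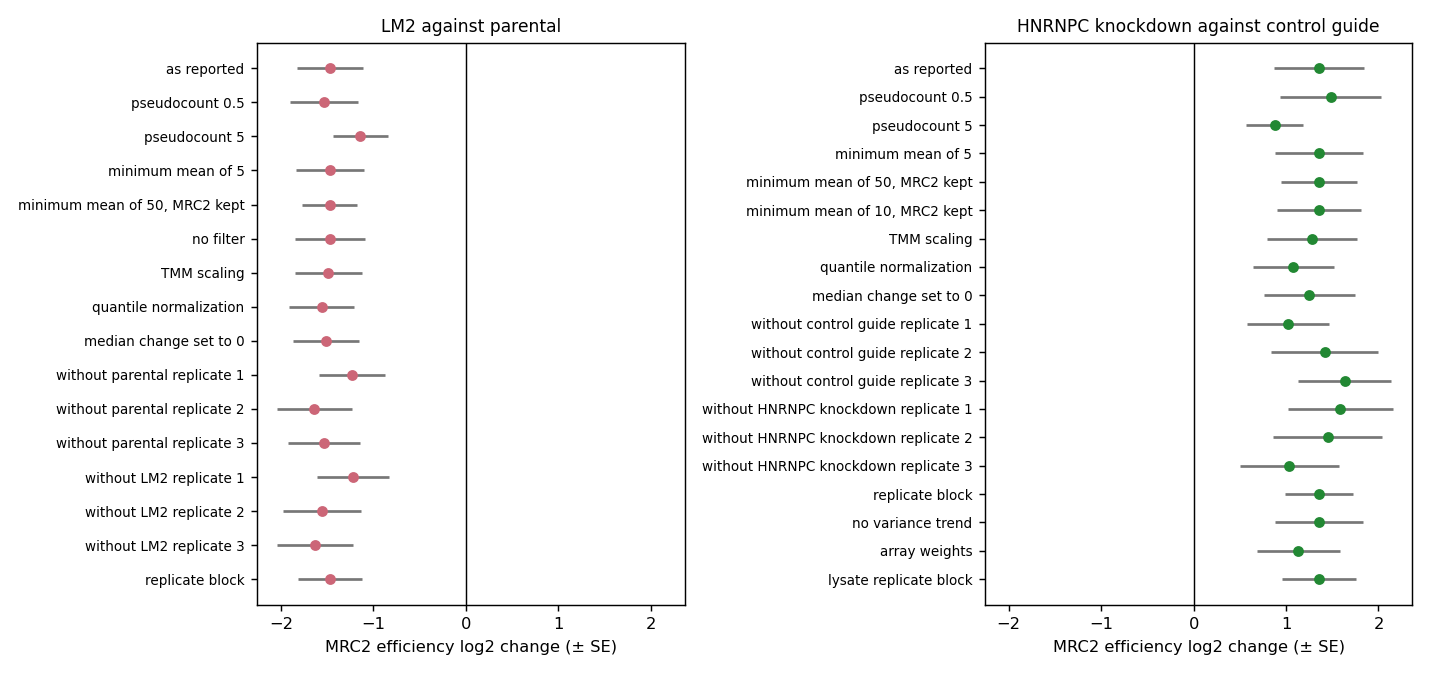
Fitted log2 change of MRC2 efficiency (points) with its SE (bars) as reported and under each alternative setting, for LM2 against parental cells (left) and HNRNPC knockdown against control guide cells (right). The change stays between -1.64 and -1.14 in LM2 cells and between 0.88 and 1.63 in knockdown cells. MRC2 was chosen on the LM2 contrast, so nothing is read from the steady change there. Filters and blocks can change only its SE.

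The transcripts whose pattern was most like that of MRC2 were sought by Pearson correlation over the 24 libraries, with log2 values centred within each table and assay. Among 8171 transcripts that passed the minimum mean in both tables, 17 had r above 0.7, and the 99th percentile was 0.62. ENST00000357182 was closest (r = 0.80), with mean footprints of 32.6 in parental, 21.2 in LM2, 11.5 in control guide and 22.1 in knockdown cells at RNA means of 521, 497, 475 and 488. ENST00000162749 came next (r = 0.78), with mean footprints of 77.3, 54.3, 22.7 and 32.2 in the same order. Its RNA means were 2395, 1936, 1488 and 1217, so its RNA mean was lower in LM2 than in parental cells, unlike that of MRC2. Like MRC2, these had fewer footprints in LM2 than in parental cells and more in knockdown than in control guide cells. They were picked for following MRC2 over these same libraries, so the shared directions come from the choice. The most opposite patterns were those of ENST00000382762 (r = -0.83), with mean footprints of 19.3, 25.3, 16.7 and 14.7, and ENST00000323571 (r = -0.80), with 72.0, 89.2, 74.9 and 55.0. The points share libraries and scaling within a table, and the correlations are a description of these libraries.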

How the data were processed

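Both deposited tables hold a normalized read signal per transcript, per the file headers and the values. The authors' RNA signal is a whole multiple of 1 step per library (100% of values within 0.05 of a step), and 1 step was taken as 1 read, which could not be checked, since the lowest value in a library was 4 to 11 steps. A step was sought in the RNA signal only, and the footprint reads are unknown, so no count model was run. The submitters' processing notes name cutadapt 2.3, UMI-tools, Bowtie2 2.3.5, SAMtools and hg38. How reads shared between transcripts were assigned, the annotation, the scaling and any correction of footprints are not stated there, so MRC2 reads from overlapping genes or other isoforms are uncertain. Columns named MDA in the LM2 table were read as the parental samples. All 24 columns of values were used, and 0 were left out.

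Values were analysed as log2(value + 1), which understates changes of low values. Changes were fitted with limma 3.58.1 in R 4.3.3 (variance trend), efficiency as the assay by cell group interaction over 12 libraries, two-sided, Benjamini-Hochberg adjusted over the rows fitted. The script was tested on simulated data, where the efficiency test with low rows kept made more false calls than its nominal rate. MRC2, the alternatives and the gene lists (collagen turnover, line markers; no member matched) were chosen with earlier results of these data known. Named transcripts were MRC2 and at most 2 most alike and 2 most opposite. Replicate numbers were not taken as pairs in the main fits. Alternatives covered pseudocount, filter, scaling, blocks, spread and left-out replicates.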

Additional observations from a re-analysis of the deposited data

How the results depend on the processing

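The MRC2 changes kept their direction in each alternative run. For LM2 against parental cells, the 15 alternatives gave efficiency changes of -1.64 to -1.14 and RNA changes of 0.05 to 0.47, and a pseudocount of 5 moved the footprint change to -0.84. In the knockdown table that pseudocount gave 0.68 for footprints (limma adjusted p = 0.0520) and 0.88 for efficiency (adjusted p = 0.0845). For the knockdown, limma's adjusted p over 18 alternatives was 0.0129 to 0.260 for footprints, 0.0405 to 0.366 for efficiency and 0.0646 to 0.681 for RNA. Footprints passed the threshold with the spread taken over 12 libraries (1.16, adjusted p = 0.0129). Leaving out replicates gave 0.757 to 1.496 for footprints, 1.02 to 1.63 for efficiency and -0.26 to -0.14 for RNA. Efficiency passed with a minimum mean of 50 and MRC2 kept (1.36, adjusted p = 0.0405), a minimum that MRC2 itself does not meet. The SE was then 0.41 against 0.49 as reported, and limma's unadjusted p was 0.00366 against 0.0136. The minimum mean of 10 with MRC2 kept was chosen after seeing the data (1.36, adjusted p = 0.0928).

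Same-numbered libraries of the 2 groups of a table did not deviate together (r of -0.20 to 0.03 in the LM2 table and -0.11 to 0.02 in the knockdown table), so the numbers were not taken as pairs. With the replicate block the knockdown changes had adjusted p-values of 0.0691 for footprints (1.16), 0.101 for efficiency (1.36) and 0.235 for RNA (-0.20), and with footprints and RNA paired by number (lysate replicate block) 0.222 for efficiency. The block changed no call. In this balanced design a block cannot move a fitted change, so the LM2 changes stayed at -1.16, -1.47 and 0.31.

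Percentiles depended on the rows ranked. With a minimum mean of 5 the RNA percentile was 9.96, 12.8, 10.9 and 8.80 and the footprint percentile 18.4, 3.60, 1.05 and 9.87 in parental, LM2, control guide and knockdown cells. With a minimum of 50 the RNA percentile was 0.18, 0.29, 0.15 and 0.10, and the parental footprint percentile 0.037. A pseudocount of 5 raised the efficiency percentile to 39.0 in LM2 and 33.9 in control guide cells, with log2 efficiencies of -4.67 and -5.07. With no filter, chosen after seeing the data, the RNA percentile was 15.1, 18.1, 17.5 and 14.9 and the footprint percentile 24.6, 10.6, 8.47 and 19.9, in the order of groups above. For the fitted changes in the knockdown table, no filter was already the reported setting. At a footprint signal of 1.35 to 12.5 in that table and unknown footprint depth, these data did not decide whether MRC2 efficiency changed in knockdown cells.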

Other observations

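Parental and control guide cells are both labelled as poorly metastatic MDA-MB-231, but MRC2 differed between them. With each library scaled to the same sum over the transcripts listed in both tables, the log2 difference, control guide minus parental, was 0.53 for its RNA, -1.34 for its footprints and -1.87 for footprints per RNA. MRC2 was chosen on values that include the parental libraries, so a large difference from them is in part fixed by the choice. The cells and the experiments cannot be told apart here, and no test was made.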
